A study of Mus musculus with 25 samples.

Results

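The proteasome genes of mouse macrophages were taken from strand-specific RNA-seq of 25 samples as every gene whose symbol is Psm, followed by a letter from a to g and a number. The rule used symbols only and found 48 of the 24411 genes counted. The letters follow the structure of the particle. Psma and Psmb encode the core, and Psmc and Psmd the cap with its assembly chaperones. Psme and Psmf encode the other activators and an inhibitor, and Psmg the assembly chaperones of the core. Primary cells were bone marrow-derived macrophages (BMDMs) of C57BL/6 mice, grown from marrow for 4 days in 25 ng/ml M-CSF. The 7 BMDM groups held 3 samples each. They were control cells cultured for 4 h, cells primed with 100 U/ml IFN-γ and given 100 ng/ml LPS for 1, 4, 12 or 24 h (IFN-γ-LPS), and cells given 10 ng/ml IL-4 or 10 ng/ml IL-13 for 12 h. How long the priming lasted was not given in the sources used here. RAW264.7 cells, an established mouse macrophage line grown in another medium, gave 2 control samples and 2 samples treated with 100 ng/ml LPS for 4 h without IFN-γ. The paper traces this line to Balb/c mice, so it differs from the BMDMs in mouse strain. BMDMs given LPS without IFN-γ were not analysed here. All BMDM groups, the control included, were made in M-CSF, and 1 control group at 4 h served every BMDM treatment. The 1, 12 and 24 h IFN-γ-LPS groups and the cytokine treatments therefore differ from it in culture time as well. Time in culture and treatment cannot be told apart there. Every IFN-γ-LPS group also had the priming, so the parts of IFN-γ and LPS cannot be told apart at any time.

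The proteasome is the protease that degrades proteins tagged with ubiquitin. Its 20S core is a barrel of outer α rings and inner β rings, and 3 of the β subunits, encoded by Psmb5, Psmb6 and Psmb7, carry the proteolytic sites. Interferons are known to induce alternative catalytic subunits, encoded by Psmb8, Psmb9 and Psmb10, which replace Psmb5, Psmb6 and Psmb7 in newly built particles called immunoproteasomes. They also induce Psme1 and Psme2, which encode the PA28αβ ring that can bind the end of the core. Immunoproteasomes produce many of the peptides that macrophages show on MHC class I molecules. The 19S cap has a base, made of ATPases from Psmc genes and some Psmd subunits, and a lid from other Psmd genes. It binds and unfolds tagged proteins and is shared by both kinds of particle.

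In the mm10 (GRCm38) build with GENCODE M21 genes, Psmb8 (chr17:34197721-34201454, plus strand) and Psmb9 (chr17:34181987-34187764, minus strand) lie in the MHC class II region with the peptide transporter gene Tap1 between them. The 2 subunit genes are 9956 bases apart. Psme1 (chr14:55578123-55581529, plus strand) and Psme2 (chr14:55587441-55591113, minus strand) lie 5911 bases apart and are transcribed towards each other, whereas Psmb9 and Psmb8 are transcribed away from each other. Psmb10 (chr8:105935735-105938444, minus strand) stands alone. The counterparts lie elsewhere, Psmb5 at chr14:54614119-54618022 on the minus strand, Psmb6 at chr11:70525367-70527858 on the plus strand and Psmb7 at chr2:38588036-38644087 on the minus strand.

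Promoter windows of 250 bases before and 50 bases after the RefSeq start on GRCm38.p6 were found for 40 of the 48 genes and searched on both strands for 4 motifs. Sites are printed for the inducible genes with a match, Psmb8 and Psme1, and for Psmb3, Psmb5 and Psmb6. The inducible genes were picked because they moved together in the counts described below. Other matches are not printed, and any link between a site and a change was not tested. The ISRE-type motif, GAAA and GAAA around any 2 bases, the kind bound by interferon regulatory factors, stood in the windows of 5 members (12.5% of the 40), Psmb3, Psmd4, Psmd9, Psme1 and Psmg4, and in 3.99% of 27025 genes. The GAS motif TTCNNNGAA, known from interferon-inducible genes, stood in 3 members (7.5%), Psmb8, Psmd2 and Psmg1, and in 9.55% of all genes. No match of one motif overlapped a match of another in these members. Motif letters are in capitals, read in the direction of the gene, with positions counted from the RefSeq start. The Psmb8 and Psme1 sites fall within annotated exons.
Psmb8 at −97, GAS (chr17:34198088-34198117, plus strand): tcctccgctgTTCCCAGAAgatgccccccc
Psme1 at 10, ISRE-type (chr14:55578493-55578522, plus strand): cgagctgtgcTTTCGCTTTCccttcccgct
Psmb3 at −163, ISRE-type (chr11:97703261-97703290, plus strand): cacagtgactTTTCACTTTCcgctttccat

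The antioxidant response element core TGACNNNGC, a target of the Nrf factors that govern constitutive proteasome genes, was found in 6 members (15% of 40), among them Psmb5 and Psmb6, and in 14% of all genes. A κB-type motif, GGGAA and CC around any 3 bases, was in 3 members, Psma3, Psmc6 and Psmd12, and in 6.59% of all genes. None of the 5 inducible genes held either of these 2 motifs in its window.
Psmb5 at −47, antioxidant response element core (chr14:54618023-54618052, minus strand): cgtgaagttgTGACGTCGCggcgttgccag
Psmb6 at −9, antioxidant response element core (chr11:70525338-70525367, plus strand): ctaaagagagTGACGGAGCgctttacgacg

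The windows of Psmb10, Psme2 and Psmb9 held no match to any of the 4 motifs. The Psmb9 window lay wholly within annotated exons (300 of 300 bases) and downstream of the GENCODE start. Bases upstream of that start were therefore not searched for Psmb9. The 100 bases just upstream of the GENCODE starts of Psmb10 and Psme2 are shown. They begin at −152 and −112 from the RefSeq starts. The Psmb8 and Psme1 sites lie downstream of the GENCODE starts of their genes, so the reference points differ. A match is a description of letters, and its absence says only that these letters were not in this window.
Psmb10 upstream (chr8:105938445-105938544, minus strand): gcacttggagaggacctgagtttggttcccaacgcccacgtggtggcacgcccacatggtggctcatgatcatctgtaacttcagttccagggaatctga
Psme2 upstream (chr14:55591114-55591213, minus strand): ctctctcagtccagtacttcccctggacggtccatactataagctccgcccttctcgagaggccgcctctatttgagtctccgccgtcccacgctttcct

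Each library held 2378639 to 3357300 counted reads. The gene Rn45s, from the ribosomal RNA precursor, took 20.1 to 39.8% of them and was left out, and levels are given as CPM, the usual depth-scaled count of a gene, over the remaining reads and after TMM scaling. The 48 genes together had 5034 to 18261 reads per library. All 8 macrophage markers were present in every BMDM group, while Mertk was at 0 in RAW264.7, and 4 fibroblast marker genes summed to 52.4 to 109 CPM across BMDM samples and to 0 in RAW264.7. The share of Rn45s reads on the antisense strand was 0.0386 to 0.122% in the 12 control, 1 h, 4 h and 12 h libraries. It was lower, 0.00603 to 0.0214%, in the 9 others from BMDMs (24 h, IL-4, IL-13), and its part in comparisons between those sets was not tested. Of the 48 genes, 47 passed the filter on low counts. Psmb11, the thymus-specific β5 subunit, had 1 read in one 24 h sample and 0 elsewhere and was not tested. Psma8, the germ cell α subunit, passed only through RAW264.7, at 18.3 to 22.9 CPM there against 0 to 2.56 CPM in BMDMs. The study's methods call the BMDM samples biological triplicates with RNA of their own. Whether they came from separate animals, and how the RAW264.7 samples were replicated, was not given in the sources used here, so p-values measure the spread between these samples, which may be technical.

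The question of the IFN-γ-LPS time course was how each subunit changed from the control at each time. Psmb8, Psmb9, Psmb10, Psme1 and Psme2 rose at every time, by 4.39-fold to 5.77-fold at 1 h and by 9.61-fold to 15.2-fold at 12 h. Most core and cap genes of the constitutive particle also rose, 17 of 31 at 1 h and 29 of 31 at 12 h, each by less than any of the 5. A gene was called changed at an adjusted p of at most 0.01 by the quasi-likelihood test of edgeR, with Benjamini-Hochberg adjustment over all 10612 genes tested. By this rule 24 of 47 members rose at 1 h, then 33, 40 and 40 at 4, 12 and 24 h. Over all genes the rising share was 14.7%, 25.3%, 23.2% and 22.3%, respectively. The members' median log2-fold change was 0.44, 0.86, 1.25 and 1.14 in that order, against −0.02, −0.09, −0.02 and −0.01 for all genes. At 1, 4 and 12 h edgeR called 0 members lower, 0 had a lower level with an unadjusted p under 0.05, and DESeq2 called 0. The falling share over all genes was 10.3%, 23.2%, 21.6% and 20.5% at the 4 times, and the single member that fell, at 24 h, was Psmd8. Of the members that rose, 5, 8, 16 and 11 also reached a log2-fold change of 1.5, against 4.83%, 10.9%, 8.41% and 7.43% of all genes. Since these are bulk samples, fewer cells of a type and less RNA per cell cannot be told apart.

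Psmb8 encodes β5i, the chymotrypsin-like subunit that takes the place of Psmb5. It was at 10.7, 7.59 and 6.95 CPM in the control samples and at 51.5, 45 and 34.4 CPM after 1 h of IFN-γ-LPS. The level went on to 57.6, 62.2 and 73 CPM at 4 h, 123, 121 and 85.9 CPM at 12 h and 107, 95.5 and 86.3 CPM at 24 h. All 12 treated samples lay above all 3 controls. The log2-fold change was 2.35 ± 0.24 (SE) at 1 h and 3.69 ± 0.21 at 12 h, and edgeR gave an adjusted p of 3.2e-13 and 1.6e-25. Per transcript length, Psmb8 had the lowest level of the 5 inducible genes in every BMDM group, and its 3 control values rested on few reads, so its errors were the widest of the 5.

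Psmb9, or β1i, is the counterpart of Psmb6 and lowers caspase-like cleavage when it is built in. Its control samples read 20.4, 17.9 and 19.2 CPM, and the 1 h samples 105, 108 and 120 CPM. They were followed by 202, 174 and 191 CPM at 4 h, 244, 243 and 273 CPM at 12 h and 176, 195 and 163 CPM at 24 h. The groups did not overlap with the control at any time. Psmb9 had the largest log2-fold change of all members at 1 h, 2.53 ± 0.15 (edgeR adjusted p = 2e-25), and reached 3.72 ± 0.13 at 12 h.

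Psmb10 encodes β2i, which replaces the trypsin-like subunit of Psmb7. It was at 54.2, 52.6 and 53.4 CPM in control cells, at 224, 254 and 229 CPM at 1 h and at 507, 403 and 397 CPM at 4 h. The 12 h samples read 563, 560 and 649 CPM and the 24 h samples 441, 484 and 423 CPM. Every treated sample was above every control, and log2-fold changes ran from 2.14 ± 0.12 at 1 h to 3.46 ± 0.12 at 12 h (edgeR adjusted p = 1.6e-39).

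Psme1 and Psme2 encode PA28α and PA28β, which assemble into a single heteromeric ring. Psme1 was at 49.9, 45.6 and 50.8 CPM in control samples, at 245, 256 and 235 CPM at 1 h, at 349, 399 and 363 CPM at 4 h, at 482, 440 and 487 CPM at 12 h and at 309, 356 and 344 CPM at 24 h. Its log2-fold change was 2.33 ± 0.11 at 1 h and 3.26 ± 0.11 at 12 h (edgeR adjusted p = 8.7e-40). The 24 h samples were all below the 12 h samples. Psme2 went from 82.6, 78.1 and 72.7 CPM in control samples to 356, 401 and 382 CPM at 1 h and 926, 893 and 793 CPM at 4 h. Its 12 h samples read 1203, 1106 and 1255 CPM and its 24 h samples 834, 975 and 943 CPM. The log2-fold change of Psme2 at 12 h, 3.93 ± 0.11 (edgeR adjusted p = 1.1e-44), was the largest of any member at any time. Divided by transcript length, Psme2 had the highest level of all members at each IFN-γ-LPS time, with 1235 CPM per kb at 12 h against 451 for Psmb10, the next. In control cells the highest level per length was that of Psmd8, at 199 CPM per kb, and Psme2 stood at 80.9. A retrocopy, Psme2b, exists in the mouse genome, and reads that fit both places equally would not be counted as unique.

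**Figure D1:**
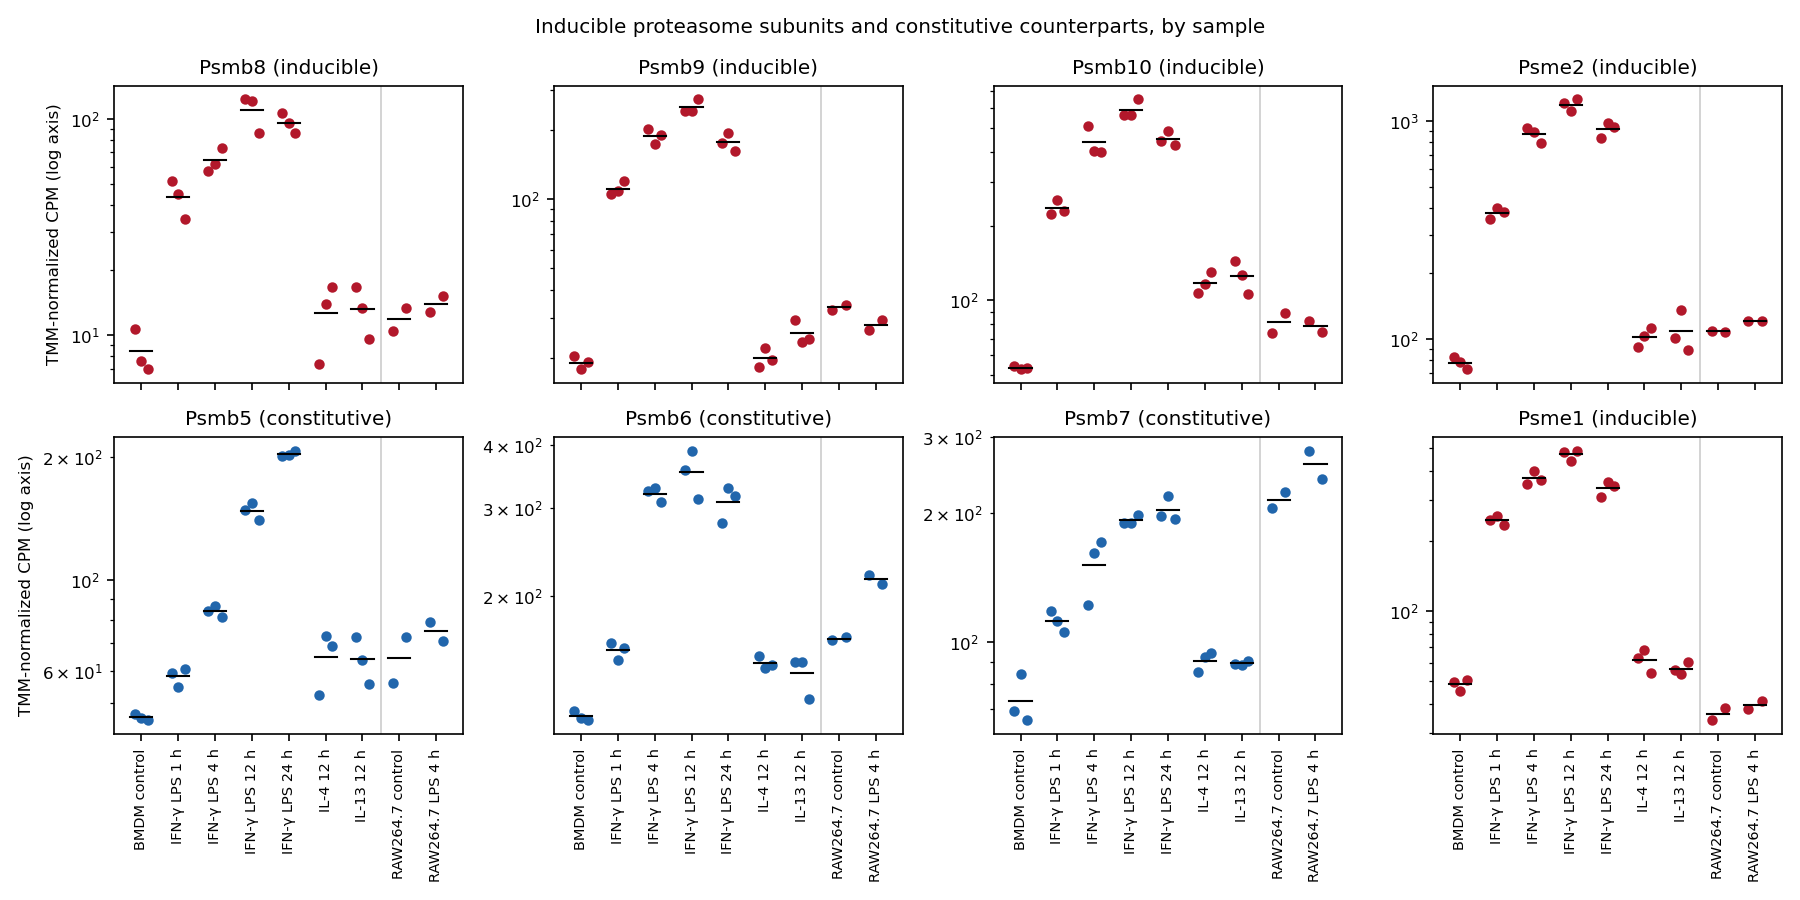
Level of the 5 inducible subunits and of Psmb5, Psmb6 and Psmb7 in all 25 samples, in CPM on a log axis, by group; points are samples and bars are group means. The inducible genes were already raised at 1 h and peaked at 12 h, as in Psme2 with 1203, 1106 and 1255 CPM. Psmb5 rose stepwise to 201 to 207 CPM at 24 h.

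The counterparts of the inducible subunits also rose, but by less. Psmb5, the constitutive chymotrypsin-like subunit β5, was at 47.2, 46.1 and 45.4 CPM in control samples and at 59.3, 54.7 and 60.7 CPM at 1 h. It then stood at 84.1, 86.2 and 81.2 CPM at 4 h, at 148, 154 and 140 CPM at 12 h and at 201, 201 and 207 CPM at 24 h. All 1 h samples were above the control samples, but the change of 0.33 ± 0.14 on the log2 scale did not pass the test (edgeR adjusted p = 0.056). From 4 h on it passed, with 0.86, 1.67 and 2.13 ± 0.12 at 4, 12 and 24 h. Psmb5 was one of 12 members with their highest mean at 24 h, a count that includes the untested Psmb11 and the low Psmg genes.

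Psmb6, the caspase-like β1, was at 118, 114 and 113 CPM in control samples, 161, 149 and 157 CPM at 1 h and 324, 328 and 308 CPM at 4 h. At 12 h it read 357, 390 and 313 CPM and at 24 h 280, 329 and 317 CPM, which overlap the 4 h samples. The log2-fold changes were 0.44 ± 0.10 at 1 h and 1.62 ± 0.10 at 12 h (edgeR adjusted p = 0.00046 and 2.8e-24). Psmb7, the trypsin-like β2, went from 69.2, 84.1 and 65.7 CPM to 118, 112 and 106 CPM at 1 h and to 189, 189 and 198 CPM at 12 h, with log2-fold changes of 0.61 ± 0.12 and 1.39 ± 0.11. Its 24 h samples, at 196, 219 and 194 CPM, overlapped those of 12 h.

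Counting the ratio of the inducible to the constitutive gene within each sample removes the scaling between libraries. The Psmb8 to Psmb5 ratio of reads was 0.186 ± 0.0396 (SD, n = 3) in control samples. It was 0.754 ± 0.162 at 1 h, 0.769 ± 0.114 at 4 h and 0.743 ± 0.114 at 12 h, and 0.475 ± 0.0564 at 24 h. The ratio was thus 4.03-fold the control at 1 h, stayed near that at 4 and 12 h, and was 2.57-fold at 24 h, when Psmb5 had its highest level. For Psmb9 and Psmb6 the folds were 4.22, 3.50, 4.27 and 3.42 at the 4 times. For Psmb10 and Psmb7 they were 2.85, 3.92, 4.16 and 3.0. In each of these 12 comparisons the treated and control samples did not overlap, and an exact two-sided permutation test gave p = 0.1, the smallest it can give with 3 against 3 samples. No adjusted p over the 21 ratio tests can therefore pass 0.05.

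On the scale of reads per transcript length, Psmb8 made up 9.09 ± 1.80% of the sum of Psmb8 and Psmb5 in control samples and 29.7 ± 3.06% at 4 h, so Psmb5 transcripts remained the larger part. Psmb9 went from 8.96 ± 0.415% of its pair to 29.9 ± 3.72% at 12 h. Psmb10 was already 39.5 ± 3.35% of its pair in control samples and was 73.1 ± 1.15% at 12 h, so it was the one inducible catalytic gene above its counterpart per length. Taken over the counts of all 48 members, the 5 inducible genes held 7.52 ± 0.251% in control samples, and 22.8, 29.8, 31.2 and 27.6% at 1, 4, 12 and 24 h. The summed level of all 48 genes was 2762 CPM in control samples and 4457, 6474, 8355 and 7154 CPM at these times.

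**Figure D2:**
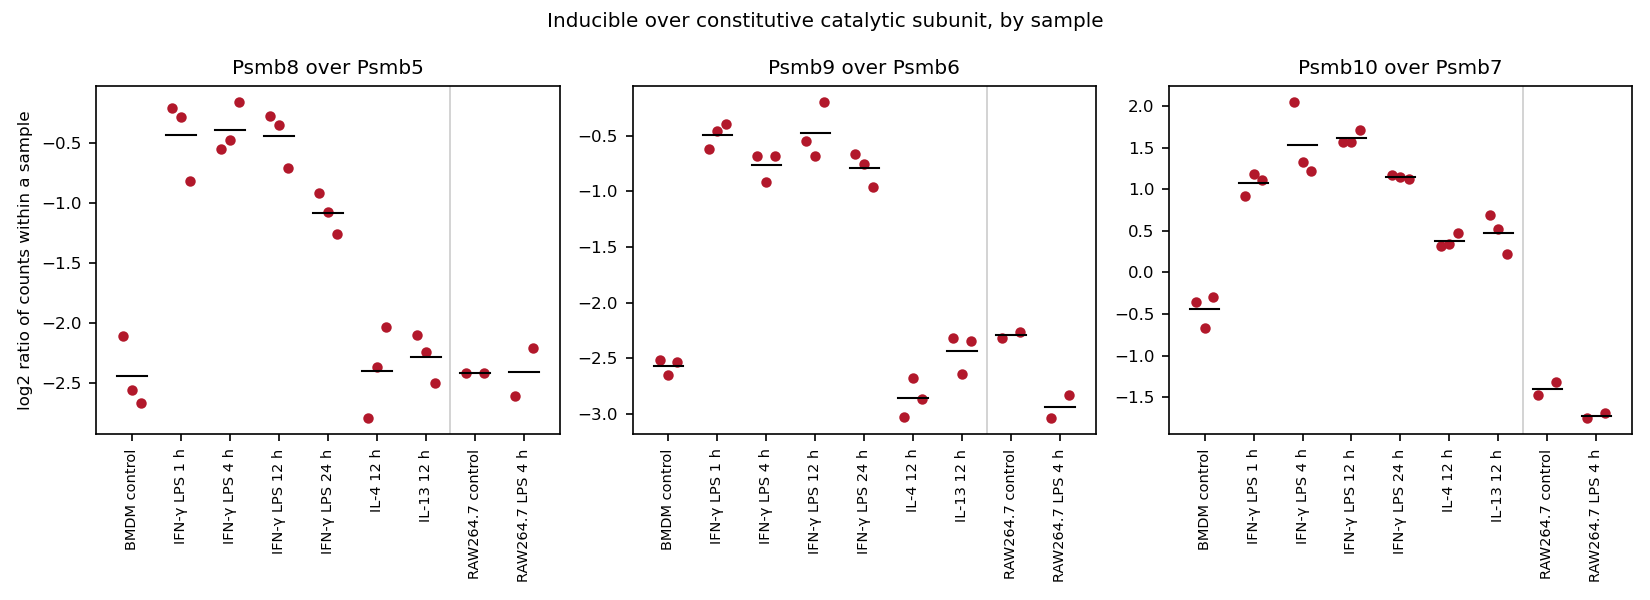
Log2 ratio of reads of each inducible catalytic subunit to its constitutive counterpart in all 25 samples by group, with points for samples and bars for means. All 12 IFN-γ-LPS samples lay above the control in each pair, and the Psmb10 to Psmb7 ratio alone was also above the control in all IL-4 and IL-13 samples.

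Of the α ring, the scaffold and gate of the core, 6 of 7 genes (Psma1 to Psma7) rose at 1 h and 7 of 7 at each later time, with median log2-fold changes of 0.70, 1.43, 1.76 and 1.48. Psma6, which encodes α1, was the most changed of them. It was at 58.5, 72.7 and 67.9 CPM in control samples, at 99.6, 115 and 110 CPM at 1 h, at 271, 307 and 284 CPM at 4 h, at 372, 381 and 456 CPM at 12 h and at 302, 343 and 353 CPM at 24 h. Its groups did not overlap with the control, and its log2-fold change at 12 h, 2.60 ± 0.11 (edgeR adjusted p = 1e-33), was the largest outside the inducible genes. Psma5 (α5) went from 37.6, 29.8 and 31.5 CPM to 166, 152 and 184 CPM at 12 h, a log2-fold change of 2.34 ± 0.13. The remaining α genes had log2-fold changes of 0.98 to 1.77 at 12 h, the lowest in Psma1 and the highest in Psma2, whose reads overlap another gene on its strand. At 1 h the largest rise outside the inducible genes was in Psma4 (α3), at 1.08 ± 0.13, with 46.7, 42.3 and 41.2 CPM in control samples and 86.2, 86.2 and 102 CPM at 1 h.

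The 7 constitutive β genes (Psmb1 to Psmb7) behaved much like the α genes in their counts, with 6 of 7 rising at 1 h and 7 of 7 later and medians of 0.61, 1.05, 1.39 and 1.29. Psmb5 was the member not called at 1 h. Besides the catalytic genes, Psmb2 and Psmb4 rose by 0.80 and 0.84 at 1 h and by 1.52 and 1.36 at 12 h. Psmb1 changed least, by 0.38 at 1 h and 0.85 at 12 h. Psmb3, whose promoter site is printed above, rose by 0.70 ± 0.17 at 1 h and 1.35 ± 0.16 at 12 h, close to the median of the ring. Psma7 was the α gene not called at 1 h (0.58 ± 0.19, edgeR adjusted p = 0.014), and it had the lowest control level of the α ring, at 18.2 to 25.2 CPM.

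The 19S cap genes were called at fewer members early on. Of its 17 genes, 5 rose at 1 h, then 11, 15 and 14 at 4, 12 and 24 h, with medians of 0.36, 0.59, 1.13 and 1.04, although 3 of them were called lower at 4 h when libraries were scaled by size alone. Of the 14 constitutive core genes, 12 rose at 1 h and 14 at each later time, with medians of 0.69, 1.19, 1.53 and 1.41. The difference between cap and core was not itself tested. Among the base ATPases, which pull substrates into the core, Psmc1, Psmc4 and Psmc6 were called at 1 h and all 6 at 12 h. Psmc1 (Rpt2) was at 89.6, 92.2 and 75.9 CPM in control samples, 118, 116 and 109 CPM at 1 h, 97.4, 92.5 and 84.5 CPM at 4 h and 191, 195 and 234 CPM at 12 h. Its 4 h samples overlapped the control, and its rise from 4 to 12 h, 1.18 ± 0.12 on the log2 scale, was the largest of any member over that step. Psmc5 (Rpt6) was counted at only 3.22 to 5.42 CPM in control samples. An annotated small gene lies on its strand, so its log2-fold changes of 0.94 to 1.64 are uncertain.

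Among the 11 lid and non-ATPase genes, Psmd11 and Psmd14, the deubiquitinase Rpn11, rose by 1.30 and 1.06 on the log2 scale at 12 h. Psmd7, the partner of Psmd14, rose by 1.30 ± 0.16, from 34.9, 23.9 and 27.8 CPM to 76.2, 74.1 and 64.2 CPM. The ubiquitin receptor gene Psmd4 rose by 0.45, 0.94, 1.17 and 1.14 at the 4 times. Psmd2, the large scaffold of the base, rose by 0.70 ± 0.09 at 12 h with 386, 419 and 417 CPM against 260, 254 and 238 CPM in control samples. Psmd13 was called at 24 h alone, at 0.70 ± 0.17, and Psmd1 at 12 h alone, at 0.44 ± 0.14.

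Psmd8 (Rpn12) went another way. Its samples read 311, 316 and 294 CPM in the control, 336, 377 and 380 CPM at 1 h, 459, 419 and 349 CPM at 4 h, 298, 309 and 322 CPM at 12 h and 209, 263 and 231 CPM at 24 h. It was above the control at 4 h by 0.41 ± 0.09 on the log2 scale and below it at 24 h by 0.39 ± 0.09 (edgeR adjusted p = 0.0003). At 12 h the control and treated samples overlapped. Scaled by library size alone, its 4 h change was −0.17 and not called, and it was called lower at 12 h (−0.34) as well as at 24 h.

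**Figure D3:**
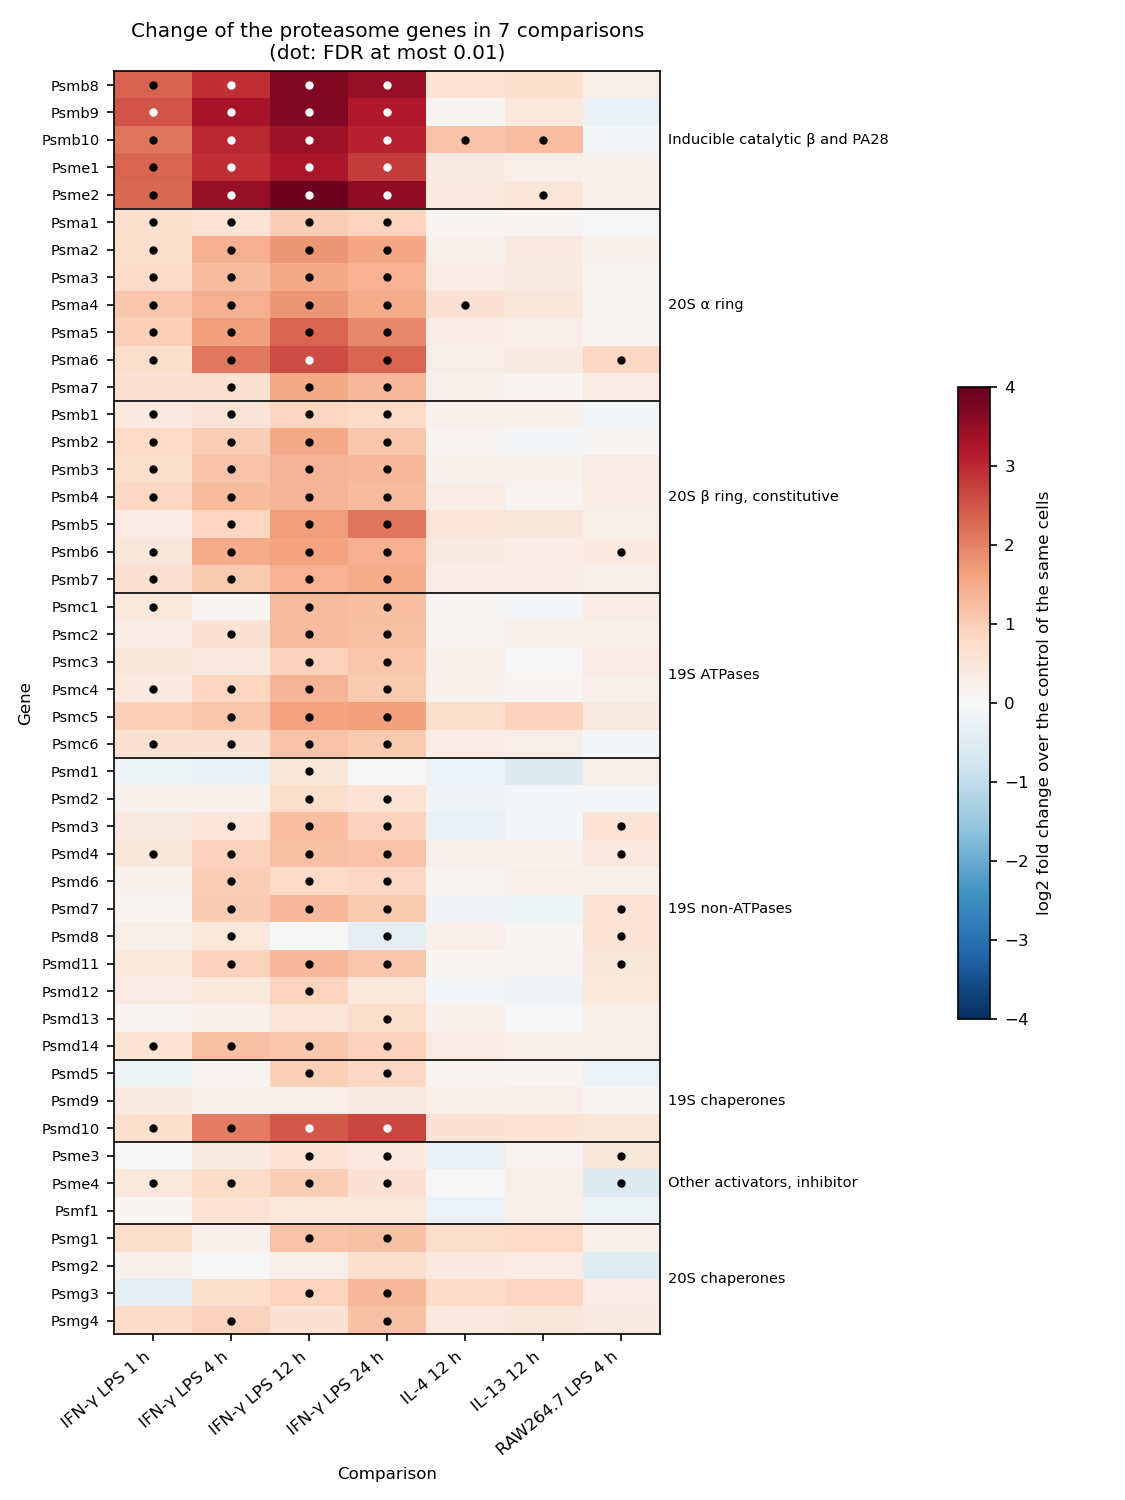
Log2-fold change of 46 members, grouped by role, in the 4 IFN-γ-LPS times, IL-4, IL-13 and RAW264.7 LPS, with a dot where the edgeR adjusted p was at most 0.01. The inducible rows are strongest at every IFN-γ-LPS time, core rows fill from 1 h and cap rows mostly from 4 or 12 h, and the cytokine columns hold 2 dots each; Psma8 and Psmb11 are not shown.

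Of the 3 chaperones that assemble the cap base, Psmd10, or gankyrin, changed most. It was at 16.1, 23.9 and 21.9 CPM in control samples, at 27.4, 41.2 and 29.8 CPM at 1 h, at 75.3, 87 and 94.4 CPM at 4 h, at 110, 115 and 118 CPM at 12 h and at 107, 156 and 134 CPM at 24 h. Its log2-fold changes, from 0.65 ± 0.19 at 1 h to 2.67 ± 0.15 at 24 h, exceeded those of every cap subunit from 4 h on. Psmd5 was called at 12 and 24 h (0.96 and 0.82), and Psmd9 at no time, with 15 to 17.7 CPM in control samples and 16.2 to 27.3 CPM at 12 h. The 20S chaperones Psmg1 and Psmg3 were called at 12 and 24 h, by 1.14 and 0.91 and then by 1.18 and 1.29, and Psmg4 at 4 and 24 h. All 4 Psmg genes were low, at 5.42 to 13.9 CPM in control samples, and Psmg2 was called at no time.

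The other activators changed little beside PA28αβ. Psme3, which encodes the nuclear PA28γ and is related to Psme1 and Psme2, was at 70.3, 63.5 and 61.5 CPM in control samples and at 66, 66.3 and 62.7 CPM at 1 h. Its 12 h samples read 96.4, 81.9 and 104 CPM, a log2-fold change of 0.53 ± 0.13 (edgeR adjusted p = 0.00028), and its 24 h change was 0.40 ± 0.13. The 24 h call was lost with DESeq2 and without control sample 2 or 3 or 24 h sample 2 or 3. The changes at 12 and 24 h with library size alone were 0.18 and 0.17, neither of them called, and that at 4 h was −0.22. Psme4 (PA200) rose at each time, by 0.42, 0.74, 0.97 and 0.57, from 152, 161 and 153 CPM in control samples to 289, 295 and 334 CPM at 12 h. Its changes at 1 and 4 h with library size alone, 0.20 and 0.15, were not called. Psmf1, the inhibitor PI31, was called at no time, and its 12 h and control samples overlapped.

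**Figure D4:**
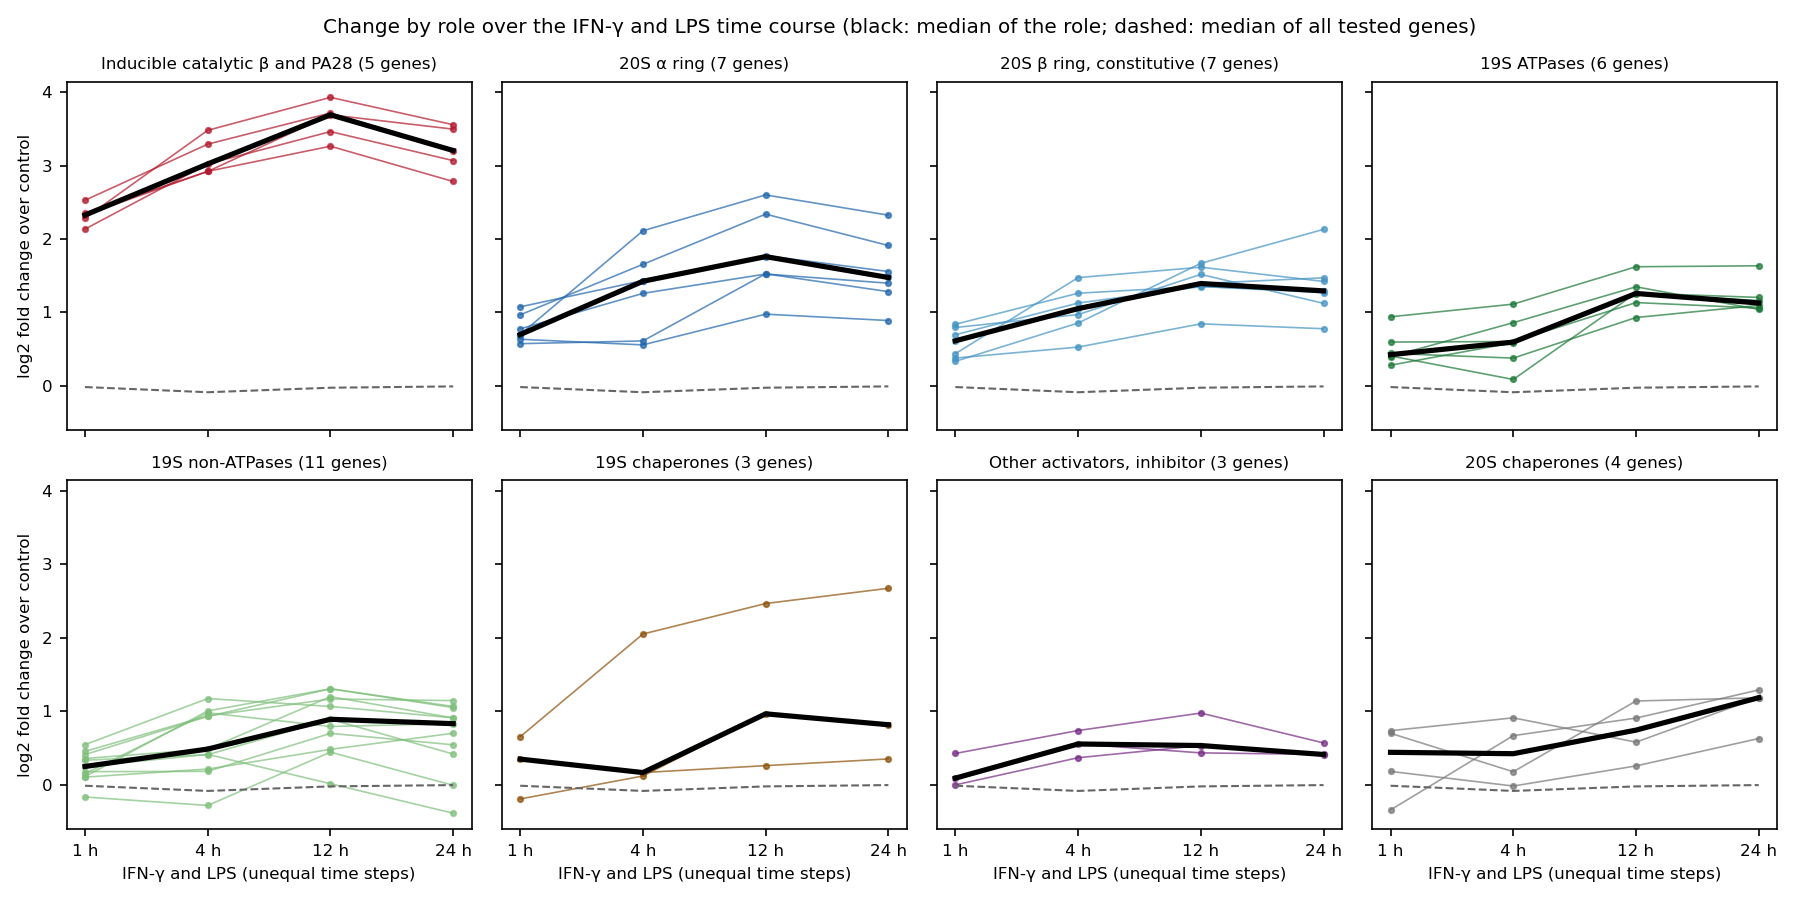
Log2-fold change from the control at 1, 4, 12 and 24 h of IFN-γ-LPS for the members of 8 roles, with thin lines for genes, a black line for the role's median and a dashed line for the median of all genes; time steps are drawn evenly though they are unequal. Medians of the inducible genes were 2.33, 3.02, 3.69 and 3.21, and those of the α ring 0.70, 1.43, 1.76 and 1.48.

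The choice of scaling changed which members were called, most of all at 4 h, and the cause was not tested. With libraries scaled by their size alone, the median of all genes shifted to −0.23, −0.66, −0.38 and −0.23 on the log2 scale at 1, 4, 12 and 24 h, and the median of the 31 constitutive core and cap genes was 0.22, 0.35, 0.95 and 0.90. Members higher and lower were then 14 and 0 at 1 h, 18 and 4 at 4 h, 36 and 1 at 12 h and 38 and 1 at 24 h. The 4 genes called lower at 4 h were Psmc1, Psmd1, Psmd2 and Psmd5. Psma1, Psmb1, Psmd3 and Psmd8, called higher in the TMM-scaled fit, went to between −0.17 and −0.024 there, and Psmb6 at 1 h and Psmb5 at 4 h were no longer called. Over all genes this scaling gave 14.3% higher and 47.1% lower at 4 h, so the constitutive median still lay above that of all genes. The 5 inducible genes stayed called higher at each time.

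Between consecutive times, 23 members rose from 1 to 4 h (19% of all genes rose), 26 from 4 to 12 h (15.2%) and 1 from 12 to 24 h (4.22%). The first step was led by Psma6 at 1.41 ± 0.11 on the log2 scale, Psmd10 at 1.40 ± 0.16, Psme2 at 1.20 ± 0.09 and Psmb6 at 1.04 ± 0.10. With library size alone, 9 members rose and 3 fell over that step, Psma1, Psmc1 and Psmd2. From 4 to 12 h the leaders after Psmc1 were Psmg1 (0.96), Psma7 (0.91), Psmd5 (0.85), Psmb5 (0.81) and Psmb8 (0.77), and Psmd8 fell by 0.40 (18.2% of all genes fell). From 12 to 24 h Psmb5 rose by 0.46 ± 0.10, while 9 members fell, against 9.36% of all genes. The 9 were 4 of the 5 inducible genes, Psmb9 (−0.51), Psme1 (−0.48), Psmb10 (−0.40) and Psme2 (−0.37), with Psmd12, Psma5, Psme4, Psmd8 and Psmb2. Psmb8 was the inducible gene not called over this step. Scaling by library size alone left 2 that fell, Psmb9 and Psme1, and without 24 h sample 1 it was 5. The step from 12 to 24 h also crosses the library sets that differed in the antisense share of Rn45s. That share was 0.0827 to 0.122% at 12 h and 0.0104 to 0.0162% at 24 h, and its part was not tested. The highest mean of the time course was at 12 h for 31 of the 48 genes, among them all 5 inducible and 23 of the 31 constitutive genes.

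With IL-4 and IL-13, which drive alternative activation, the share of members called was near that of all genes. At 12 h of IL-4, 2 of 47 members rose, Psmb10 and Psma4, where 3.78% of all genes rose. At 12 h of IL-13, 2 rose, Psmb10 and Psme2, where 4.98% of all genes rose. Medians were 0.17 and 0.21, against 0.00 and −0.01 for all genes. No member was called lower by edgeR or DESeq2 with either cytokine, and 1 had an unadjusted p under 0.05 with a lower level in each, Psme3 with IL-4 and Psmd1 with IL-13, where 2.47% and 3.35% of all genes fell.

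Psmb10 was at 107, 117 and 131 CPM with IL-4 and at 144, 127 and 106 CPM with IL-13, against 54.2, 52.6 and 53.4 CPM in control samples. All 6 treated samples were above all 3 controls. The log2-fold change was 1.14 ± 0.13 with IL-4 and 1.23 ± 0.13 with IL-13 (edgeR adjusted p = 7.4e-11 and 2.3e-12). Its partners in the immunoproteasome did not pass the test. Psmb9 was at 18.3, 22.2 and 19.7 CPM with IL-4, overlapping the control, with a log2-fold change of 0.06 (edgeR adjusted p = 0.90), and at 29.3, 23.5 and 24.3 CPM with IL-13, 0.42 (adjusted p = 0.13). Psmb8 was at 7.33, 13.9 and 16.7 CPM with IL-4 and 16.7, 13.3 and 9.61 CPM with IL-13, with log2-fold changes of 0.56 and 0.63 (edgeR adjusted p = 0.28 and 0.17).

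The constitutive catalytic genes stood slightly above the control with both cytokines without being called. Psmb5 read 52.4, 72.8 and 69.2 CPM with IL-4 and 72.5, 63.9 and 55.7 CPM with IL-13, all above the 3 controls, and its log2-fold changes of 0.48 and 0.46 were just short of the threshold (edgeR adjusted p = 0.013 for both). The call was made without IL-4 sample 1 or IL-13 sample 3. Psmb6 was at 0.35 and 0.28 and Psmb7 at 0.31 and 0.29 on the same scale, also with no overlap. Psme1 was at 0.34 with IL-4 and 0.22 with IL-13, and Psme3 overlapped the control in both.

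The Psmb10 to Psmb7 read ratio was 1.76-fold the control with IL-4 and 1.89-fold with IL-13, with no overlap, and the exact permutation p was 0.1, the smallest possible. The Psmb9 to Psmb6 ratio was 0.818-fold the control with IL-4, also without overlap, and 1.10-fold with IL-13, with overlap. Psmb8 to Psmb5 ratios overlapped the control in both. Psme2 was at 101, 136 and 89.1 CPM with IL-13, a log2-fold change of 0.48 ± 0.12 (edgeR adjusted p = 0.0023), and at 92.2, 103 and 112 CPM with IL-4, 0.39 (adjusted p = 0.022). The IL-13 call of Psme2 was lost without control sample 2, control sample 3 or IL-13 sample 2. Psma4 read 63.4, 64.5 and 67.4 CPM in the IL-4 samples, above all controls, and its log2-fold change was 0.58 ± 0.13 (edgeR adjusted p = 0.001).

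Between IL-13 and IL-4, edgeR called 0 members higher and 0 lower, as did DESeq2, with 3 members higher at an unadjusted p under 0.05 (Psme3, Psme4 and Psmf1) and 0 lower. Over all genes 0.0754% were higher and 0% lower. Against IL-4 at the same 12 h, IFN-γ-LPS raised 39 of 47 members, where 21.1% of all genes were higher. This comparison does not use the 4 h control, but it crosses the library sets that differed in the antisense share of Rn45s. That share was 0.0827 to 0.122% at 12 h of IFN-γ-LPS and 0.00996 to 0.0214% with IL-4, and its part was not tested. The largest log2 differences were 3.65 ± 0.13 for Psmb9, 3.54 ± 0.11 for Psme2, 3.13 ± 0.19 for Psmb8 and 2.92 ± 0.11 for Psme1, followed by 2.34 ± 0.11 for Psma6 and 2.32 ± 0.11 for Psmb10. No member was lower in edgeR or DESeq2, where 19.9% of all genes were, and 1, Psmd8, had an unadjusted p under 0.05. Library size alone gave 33 higher and 1 lower, Psmd8.

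In RAW264.7 cells, LPS for 4 h raised 8 members and lowered 1, where 8.9% of all genes rose and 9.61% fell, and the members' median was 0.22 against −0.02 for all genes. None of the 8 was an inducible gene. Psmb8 was at 10.4 and 13.4 CPM in control and 12.7 and 15.2 CPM in LPS-treated cells, a log2-fold change of 0.24 with a 95% interval of −0.31 to 0.80. Psmb9 was at 32.6 and 34.4 CPM and then 26.7 and 29.5 CPM, −0.25 (−0.59 to 0.09). Psmb10 was at 73.9 and 89.1 CPM and then 82.8 and 74.2 CPM, −0.06 (−0.33 to 0.22). The intervals of Psme1 (−0.17 to 0.44) and Psme2 (−0.10 to 0.41) likewise spanned 0. Each of these upper bounds lies below the smallest IFN-γ-LPS change of the 5 genes in BMDMs at 4 h, 2.92. With LPS the Psmb9 to Psmb6 read ratio was 0.638-fold the RAW264.7 control and the Psmb10 to Psmb7 ratio 0.799-fold, both without overlap. The exact permutation p was 0.333 for each, the smallest possible with 2 against 2 samples. The Psmb8 to Psmb5 ratio was 1.00-fold, with overlap.

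Psmb5 (0.22) and Psmb7 (0.28) did not pass the test either, and Psmb7 was called when the RAW264.7 samples were fitted alone. The members that rose in RAW264.7 were Psma6, 5 cap genes (Psmd3, Psmd4, Psmd7, Psmd8 and Psmd11), Psmb6 and Psme3. Psma6 went from 221 and 204 CPM to 372 and 377 CPM, a log2-fold change of 0.82 ± 0.11 (edgeR adjusted p = 1.1e-08). The other 7 log2-fold changes were between 0.38 and 0.56. Psme4 fell from 156 and 138 CPM to 103 and 99.8 CPM, a log2-fold change of −0.54 ± 0.12 (edgeR adjusted p = 0.00028). Depending on which 1 of the 4 libraries was left out, 3 or 4 members rose, and the Psmb6 call was lost each time. Fitting the RAW264.7 samples alone gave 16 that rose. With library size alone 3 rose, Psma6, Psmd3 and Psmd8.

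Untreated RAW264.7 cells already differed from control BMDMs in 43 members. There 41 were higher, where 31.9% of all genes were, and 2 were lower, Psmd8 and Psme1, where 33.7% were; the median was 1.13 against −0.06 for all genes. The Psme1 call was lost with RLE scaling, DESeq2, the replicate block and both count filters and without control sample 1 or 3 or either RAW264.7 control, and neither gene was called with library size alone. Psma5 was at 202 and 193 CPM against 37.6, 29.8 and 31.5 CPM, a log2 difference of 2.58 ± 0.13. Psma4 and Psma7 differed by 2.39 and 2.19, and the assembly chaperones Psmg1 and Psmg3 by 2.64 and 2.10. Psma8 is among the 41, but it passed the filter through RAW264.7 alone, so its call is no test. The inducible genes differed less: Psmb9 by 0.80, Psmb10 by 0.61 and Psme2 by 0.48, with Psme1 lower by −0.43 and Psmb8 not called at 0.49. Cell type, mouse strain, medium and cell line history differ together here and cannot be told apart. The inducible share of all member counts was 4.98% in RAW264.7 control and 4.38% in LPS-treated samples, below the 7.52% of control BMDMs.

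The 4 h change itself was compared between RAW264.7 with LPS and BMDMs with IFN-γ-LPS by an interaction contrast. It was smaller in RAW264.7 for 25 members and larger for 0, where 15.3% and 9.75% of all genes were smaller and larger. One member, Psmd1, was larger at an unadjusted p under 0.05, and DESeq2 called 22 smaller and 0 larger. All 5 inducible genes and 13 of 14 constitutive core genes were among the 25, and 5 of 17 cap genes. Differences were −3.54 ± 0.23 for Psmb9, −3.33 ± 0.17 for Psme2, −3.08 ± 0.19 for Psmb10, −2.79 ± 0.20 for Psme1 and −2.68 ± 0.38 for Psmb8. The next largest, Psmd10 and Psma5, were −1.60 and −1.55. With library size alone 14 members were smaller and 3 were larger, Psmc1, Psmd1 and Psmd8. The stimuli also differ, since RAW264.7 cells had no IFN-γ, so cell type, mouse strain and stimulus cannot be told apart.

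**Figure D5:**
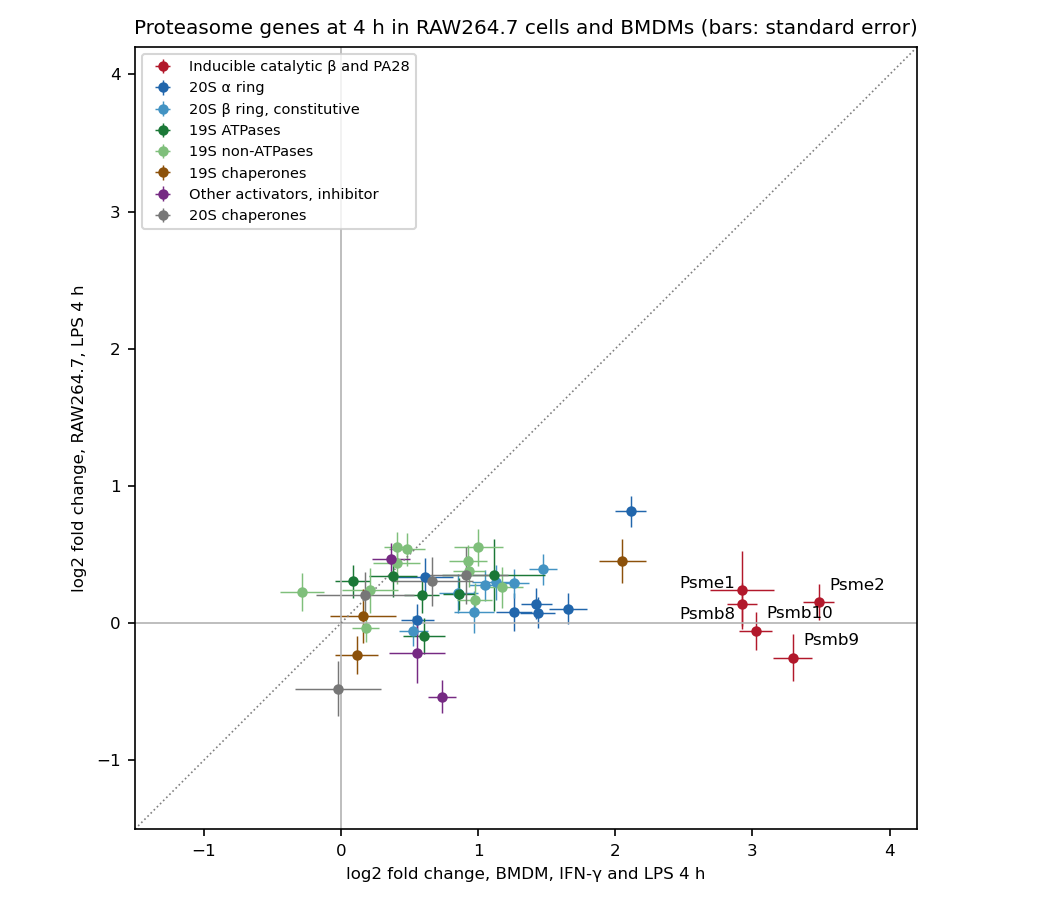
Log2-fold change at 4 h of IFN-γ-LPS in BMDMs (horizontal axis) against that at 4 h of LPS in RAW264.7 (vertical axis), a point per member with standard errors on both axes. The 5 inducible genes lie at 2.92 to 3.48 on the horizontal axis and between −0.25 and 0.24 on the vertical axis, while Psma6 is high on both, at 2.11 and 0.82.

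The genes that act with the proteasome were taken as fixed lists. All 6 genes of the MHC class I peptide route, Tap1, Tap2, Tapbp, Erap1, Nlrc5 and B2m, rose at every IFN-γ-LPS time. Over all genes 14.7%, 25.3%, 23.2% and 22.3% rose at 1, 4, 12 and 24 h. Tap1, which shares the interval with Psmb8 and Psmb9, rose by 2.75 at 1 h and 5.44 ± 0.13 on the log2 scale at 4 h and then stood at 4.84 and 4.41 above the control. Nlrc5, the class I transactivator, rose by 2.11, 4.70, 3.85 and 3.10. The regulator Irf1 rose by 5.16 at 1 h and was at 5.67 at 4 h and 2.82 at 24 h. In RAW264.7 with LPS, where 8.9% of all genes rose, Nlrc5 (0.55) and Tapbp (0.51) rose, and Irf1 did not pass the test (0.11). IL-4 and IL-13 raised Irf1 by 0.86 and 0.91.

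Of 21 tested partners of the proteasome, such as assembly factors, shuttles and regulators, 6 rose and 2 fell at 1 h, 9 and 3 at 4 h, 10 and 3 at 12 h and 9 and 3 at 24 h. Over all genes 14.7% rose and 10.3% fell at 1 h, and 20.5 to 25.3% went in each direction at the later times. Pomp, the maturation factor needed to build new cores, rose by 1.21 ± 0.12 at 1 h and 1.35 ± 0.12 at 24 h. It also rose with IL-4 (0.49) and IL-13 (0.48) and was at −0.04 in RAW264.7 with LPS. Nfe2l1, or Nrf1, the activator of constitutive proteasome genes, rose by 0.36, 1.68, 1.23 and 1.39, while Ddi2, the protease that activates its protein, fell at each time, by 1.10 at 1 h and by 2.48 at 4 h, from a mean of 20.3 CPM to 3.64 CPM. Ubqln2 and Zfand2a were the other partners called lower at 4 h.

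By Pearson correlation of the 9 group means with Psmb8, over 10611 other genes and given as a description with no test, Psme2 was the most alike gene of all (0.994) and Psmb9 the fourth (0.984). Between them were H2-M3 (0.990), a nonclassical class I gene, and Tspo (0.989). Psmb10 came at rank 17 (0.973) and Psme1 at rank 28 (0.966), and the next member, Psmb2, at rank 67 (0.950). The control group is 1 of the 9 points, and all points share the scaling of the libraries.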

How the data were processed

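RNA from 21 BMDM samples and 4 RAW264.7 samples was depleted of ribosomal RNA and made into directional libraries. The authors demultiplexed reads with CASAVA 1.8.2, trimmed them with Trimmomatic 0.33, aligned them to mm10 with STAR 2.5.1 and deposited raw counts of uniquely mapped reads per gene for both strands together and for each strand. The annotation release was not given in the sources used here. The column of sense-strand counts was used, and the small share of reads on the opposite strand was not. The members and gene lists were chosen with earlier results of these data known.

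Counts without Rn45s were scaled by TMM and fitted in edgeR 4.0.16 (R 4.3.3) with 1 mean per group over all 25 samples, after edgeR's filter on low counts left 10612 genes. Contrasts used the robust quasi-likelihood test with Benjamini-Hochberg adjustment at 0.01. Standard errors were derived from the fold change and the F statistic. The fit was tested on simulated data. Total counts of 2378639 to 3357300 per library limit the precision of low genes such as the Psmg group. Ratios within a sample used a pseudocount of 0.5 and exact permutation tests (SciPy 1.17.1). Genes named are the 5 inducible subunits, Psmb5, Psmb6, Psmb7 and Psme3 in every comparison, called chaperones, Psme4 and Psmf1, untested members, and among other called members whose groups do not overlap the 5 largest rises and the 5 largest falls. Other cap and β genes, Psma7 and Psma1 were singled out after their values were seen. Alternatives were other scalings, filters and tools (DESeq2 1.42.0), separate fits, a replicate block and each library left out. The same replicate number was not taken to pair samples, since the labels do not say that it marks a shared culture. The mean correlation of deviations from group means was 0.0144 (−0.0535 to 0.154) between BMDM samples of the same number in different groups. It was −0.00724 between those of other numbers, and 12 of 21 BMDM samples correlated best with their own number. Whether the numbers mark partial pairing was not tested. Replicate pairs differed by 1.33 to 4.93 times the sampling variance, so none was counted as a repeat of another. Genes with pseudogenes or overlapping genes on their strand, such as Psmb5, Psmb6, Psmb7, Psma2, Psmc5, Psmd1 and Psme2, may lose or gain reads. Positions are from GENCODE M21. One gene of the listed regulators is not reported here.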

Additional observations from a re-analysis of the deposited data

Results flagged for a closer look

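The change at 4 h differed between RAW264.7 with LPS and BMDMs with IFN-γ-LPS for 25 members by the interaction contrast of edgeR's quasi-likelihood test. All 25 were smaller in RAW264.7, where 15.3% of all genes were smaller and 9.75% larger. With library size alone fewer members were smaller and some were larger, as given above. Among the 5 inducible genes the differences, RAW264.7 minus BMDM on the log2 scale, were −3.54 for Psmb9, −3.33 for Psme2, −3.08 for Psmb10, −2.79 for Psme1 and −2.68 for Psmb8. Of the constitutive catalytic genes, Psmb6 differed by −1.08, Psmb7 by −0.78 and Psmb5 by −0.64, the last 2 not called with library size alone. Psme4, which rose in BMDMs and fell in RAW264.7, differed by −1.27. Its rise in BMDMs at 4 h was not called with library size alone.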

How the results depend on the processing

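With library size alone, 8 changes of single members turned from higher to lower: at 4 h Psma1 (−0.024), Psmb1 (−0.055), Psmd3 (−0.10) and Psmd8 (−0.17), all called higher before and none called lower then, at 4 h Psmc1 (−0.50), Psmd2 (−0.40) and Psmd5 (−0.47), and at 12 h Psmd8 (−0.34), these 4 called lower then. No other alternative turned the direction of a called change in a treatment. Of the recomputed counts of members, 13 of 125 with a library left out and 12 of 189 under other settings moved by over 1.5 times or to or from 0. With library size alone, 14 members rose at 1 h, 18 rose and 4 fell at 4 h, 1 fell at 12 h, 4 rose with IL-13, 3 rose in RAW264.7, 12 changed from 1 to 4 h and 3 from 12 to 24 h. Requiring at least 10 counts in every sample gave 1 member lower at 4 h and 1 lower with IL-13, and fitting only the groups compared gave 1 lower with IL-13 and 16 higher in RAW264.7. A pseudocount of 5 gave Psmb8 to Psmb5 log2 differences of 1.78, 1.72 and 1.09 at 4, 12 and 24 h and Psmb9 to Psmb6 differences of 1.95, 1.68 and 1.64 at 1, 4 and 24 h. The cause of these moves was not tested.

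With each library left out in turn, the number of members rising at 1 h ranged from 19 to 25, at 4 h from 29 to 32, at 12 h from 39 to 40 and at 24 h from 38 to 40. The ranges were 1 to 3 rising with IL-4, 1 to 6 rising and 0 to 1 falling with IL-13, 3 to 4 rising and 0 to 1 falling in RAW264.7, 15 to 22 changed from 1 to 4 h, 20 to 22 from 4 to 12 h, 6 to 8 from 12 to 24 h, 37 to 38 between IFN-γ-LPS and IL-4, 38 to 43 between untreated RAW264.7 and BMDMs, and 20 to 24 in the interaction. The low values came without 4 h sample 2 (15), 24 h sample 1 (6), control sample 3 (IL-4, 1) and control sample 2 or IL-13 sample 2 (IL-13, 1), and the 6 with IL-13 came without IL-13 sample 3.

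With the replicate block, 24, 32, 40 and 40 members rose at the 4 times, 2 with each cytokine and 8 in RAW264.7, and the interaction held 25. The labels do not say that a number marks a shared culture, so the block was not the main fit. Low depth limits the Psmg genes, Psmc5 and Psma8 most.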
